A study of Homo sapiens with 6 samples.

Results

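The genes examined were LASP1 and the adaptors and actin regulators it works with: LASP1 and its relative NEBL, the zyxin group ZYX, LPP and TES, and the Ena/VASP group VASP, ENAH and EVL. They were chosen by name, with earlier results of these data known. Each of the 8 was found once among the 58735 gene rows of the deposited table. LASP1 was included because the study's title places it in a loop with TRIM15, an E3 ubiquitin ligase, and the AKT/FOXO1 axis, in hepatocellular carcinoma cells. The 6 libraries came from Huh7, an established human liver cancer cell line, kept in RPMI-1640 with fetal bovine serum. The tested libraries were 3 labelled shTRIM15 (TRIM15 knockdown by short hairpin RNA), and 3 labelled shcontrol were the control. All 6 rest on this 1 cell line. The labels give neither hairpin number nor sequence, and do not say that replicates were separate cultures, so p-values measure only the spread between these libraries, which may be technical.

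LASP1 (LIM and SH3 domain protein) is an actin-binding adaptor that sits at focal adhesions and actin-rich edges. Its SH3 domain binds proline-rich partners, among them zyxin, LPP and VASP. Zyxin and LPP in turn dock Ena/VASP proteins through short proline-rich repeats, and Ena/VASP proteins promote actin filament elongation at barbed ends. In liver cancer cells this machinery is studied for its part in adhesion and movement. The values here are RNA levels, and no protein level was analysed here.

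LASP1 lies on chromosome 17 at 38869859 to 38921770 on the plus strand of GRCh38, ZYX on chromosome 7 at 143381080 to 143391111 on the plus strand, and VASP on chromosome 19 at 45506579 to 45526983 on the plus strand. ENAH lies on chromosome 1 at 225486835 to 225653142 on the minus strand, and TES on chromosome 7 at 116210493 to 116258783 on the plus strand. LPP spans chromosome 3 from 188153284 to 188890671 on the plus strand, NEBL chromosome 10 from 20779973 to 21174187 on the minus strand, and EVL chromosome 14 from 99971449 to 100144236 on the plus strand. These positions are the outer ends of each gene in GENCODE. The 250 bases before each RefSeq start, which can lie inside those ends, as it does for LASP1, ZYX and VASP, were read from RefSeq for all 8 genes, in 20 windows on GRCh38.p14, because the series title names FOXO1, a forkhead factor, and because actin and adhesion genes include targets of SRF, which binds CArG boxes. The motifs were chosen after the sequences had been seen. The forkhead core TGTTTAC or TGTTTAT was searched on both strands and was present in 6.56% of all 35116 RefSeq promoters of the same length. A CArG box was CC, 6 bases of A or T, then GG. It was present in 1.16% of those promoters, and in 7.04% when at most 1 inner G or C was allowed. The 3 promoters below have a single RefSeq window and a match, shown in capitals: the forkhead core in LASP1, 32 to 26 bases before the start, and the CArG-like box in ZYX, 106 to 97 bases before it, and in VASP, 69 to 60 bases before it. The windows are chr17:38869808-38870057, chr7:143381095-143381344 and chr19:45507229-45507478, all on the plus strand and written 5′ to 3′.
LASP1: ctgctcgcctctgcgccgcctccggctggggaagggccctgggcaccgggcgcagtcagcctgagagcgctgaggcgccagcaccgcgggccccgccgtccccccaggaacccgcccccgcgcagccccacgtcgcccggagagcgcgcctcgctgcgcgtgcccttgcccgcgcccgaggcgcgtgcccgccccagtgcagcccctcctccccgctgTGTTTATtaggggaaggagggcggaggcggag
ZYX: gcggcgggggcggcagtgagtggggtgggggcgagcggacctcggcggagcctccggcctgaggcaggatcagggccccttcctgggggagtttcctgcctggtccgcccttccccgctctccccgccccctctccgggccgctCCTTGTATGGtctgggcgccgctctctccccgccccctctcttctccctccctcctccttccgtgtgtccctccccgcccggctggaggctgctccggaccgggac
VASP: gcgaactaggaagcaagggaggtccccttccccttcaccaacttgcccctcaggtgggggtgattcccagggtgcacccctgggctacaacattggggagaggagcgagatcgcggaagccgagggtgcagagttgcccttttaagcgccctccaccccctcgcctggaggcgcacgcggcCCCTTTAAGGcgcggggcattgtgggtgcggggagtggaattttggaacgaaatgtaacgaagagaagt
The ENAH window held neither motif. The GC box GGGCGG, also searched on both strands and present in 42.6% of all promoters, had 2 matches in ENAH, 3 in LASP1, 5 in ZYX and 0 in VASP. Of the genes with several windows, LPP and TES each had 1 window with both a forkhead core and an exact CArG box. The box was CCATATTTGG in LPP and CCAAATTAGG in TES. Neither of these windows is the one nearest its gene's GENCODE start. Another LPP window held the CArG-like CCTTACATGG. A match of letters is a description of the window and says nothing of binding in these cells.

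The depth, counted back from the FPKM values as whole reads, was 17332508 to 19556855 reads in knockdown libraries and 17715210 to 18217903 reads in control libraries. TRIM15, the targeted gene, was lower in the libraries labelled as knockdown. It was at 3.23, 2.11 and 2.51 FPKM (reads adjusted for gene length and for library size) in knockdown libraries, against 5.17, 5.09 and 4.88 FPKM in control libraries. The groups did not overlap, and TRIM15 stood at 51.9% of control (log2 fold change -0.75, SE 0.11; limma adjusted p = 0.00416). In bulk RNA, fewer cells carrying a transcript and less of it per cell cannot be told apart. Of 14847 genes tested, 19.0% passed an adjusted p of 0.05, 8.93% higher and 10.1% lower in knockdown libraries. In 37.8% of tested genes the groups of libraries did not overlap. All 10 hepatocyte markers passed the filter, with means of 4.96 FPKM (AHSG) to 928 FPKM (ALB) in knockdown and 4.51 to 899 FPKM in control libraries. Their sum, mostly ALB and AFP, was 1375 to 1397 FPKM in knockdown libraries and 1347 to 1370 FPKM in control libraries, and TF alone among them passed the threshold, at 37.5 FPKM in knockdown and 40.02 FPKM in control libraries (adjusted p = 0.0248). Endothelial markers were below 0.5 FPKM for 6 of 6, with CDH5 at 0 (summed level 0.262 to 0.417 FPKM in knockdown and 0.318 to 0.454 FPKM in control libraries). Blood cell and platelet markers were below it for 6 of 9, with PPBP at 0 (17.1 to 18.4 FPKM in knockdown and 17.4 to 18.9 FPKM in control libraries). The list's other 3 were CD14 (13.7 FPKM in knockdown and 14.0 FPKM in control libraries, adjusted p = 0.746), LYZ (3.503 FPKM in knockdown and 3.14 FPKM in control libraries, adjusted p = 0.390) and the platelet gene GP1BA (0.518 FPKM in knockdown and 0.979 FPKM in control libraries, adjusted p = 0.0323). Fibroblast and smooth muscle markers were below it for 6 of 9, but LUM, a matrix proteoglycan, was at 50.7 FPKM in knockdown and 57.6 FPKM in control libraries (adjusted p = 0.00931). COL1A2 was at 4.66 FPKM in knockdown and 5.39 FPKM in control libraries (adjusted p = 0.0365), and COL1A1 at 0.920 FPKM in knockdown and 0.907 FPKM in control libraries (adjusted p = 0.966). The list summed to 55.7 to 57.9 FPKM in knockdown and 62.6 to 66.3 FPKM in control libraries. The part of these markers in the results below was not tested.

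Levels per length spanned a wide range. ZYX, TES, VASP, LASP1 and ENAH were abundant, LPP was modest, and NEBL and EVL were near the floor. Averaged over the 6 libraries, ZYX exceeded 96.9% of protein-coding genes with a value above 0, and EVL exceeded 26.1% of them. The order was the same in both groups, ZYX, TES, VASP, LASP1, ENAH, LPP, NEBL and EVL, and no neighbouring pair overlapped in either group. This order depends on the length the authors divided by, which is the union of all annotated exons. So do the sums, shares and ratios of members given below. In a calculation added after seeing the data, the length of the transcript with the longest coding sequence placed ENAH first, at 115 in knockdown and 136 in control libraries on that scale, ahead of ZYX at 110 in knockdown and 103 in control libraries. That length is 3308 bases for ENAH and 2493 for ZYX, against exon unions of 15044 and 3482 bases. All reads of the union were kept, also those from exons outside that transcript. The calculation therefore cannot decide which gene had the most RNA.

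**Figure D1:**
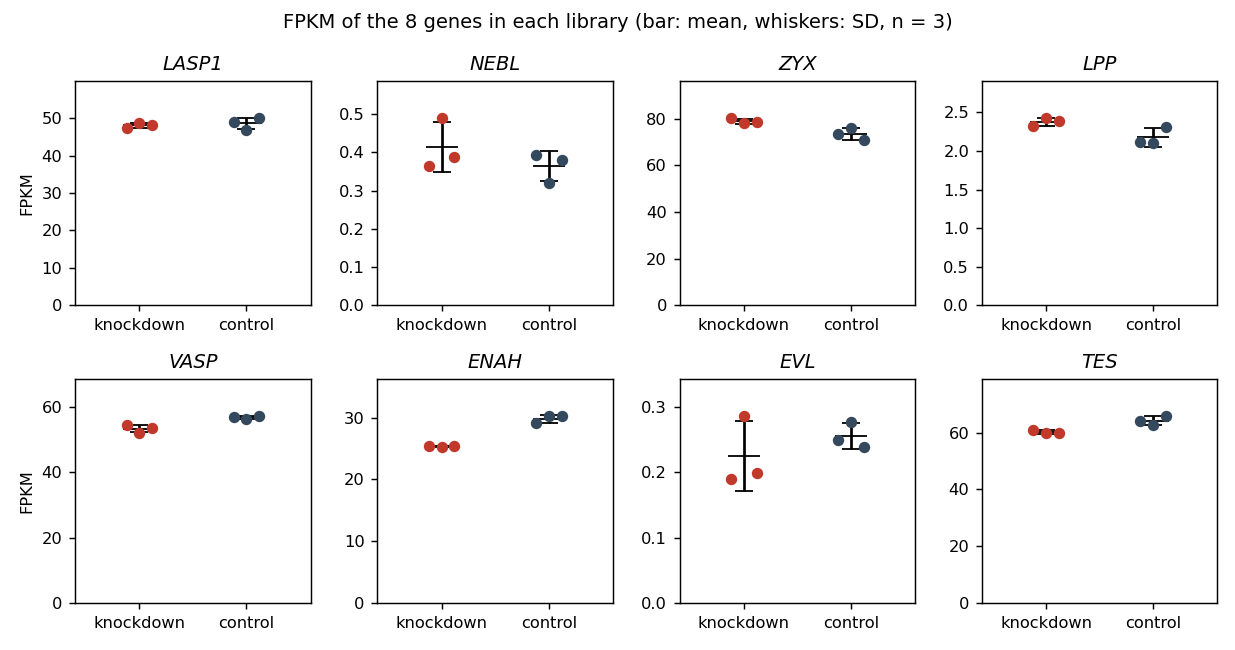
FPKM of each of the 8 genes in each library, knockdown left and control right, with an axis from 0 for each gene. Points are libraries, bars the mean and whiskers the SD (n = 3 each). ENAH is lower in all 3 knockdown libraries than in any control library, and LASP1 overlaps between groups.

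LASP1, the adaptor named in the study's title, had 47.5, 48.6 and 48.1 FPKM in knockdown libraries, against 49.1, 46.9 and 50.0 FPKM in control libraries. The groups overlapped: the lowest value of all 6 was in control replicate 2 and the highest in control replicate 3. LASP1 averaged 48.1 ± 0.566 FPKM in knockdown libraries and 48.7 ± 1.55 FPKM in control libraries (SD, n = 3 each), from 5850 to 6784 reads per library. The log2 fold change was -0.02 with a 95% interval of -0.08 to 0.05, or -5.53% to 3.51% on the FPKM + 1 scale (limma adjusted p = 0.742). An exact two-sided permutation test of the means gave p = 0.6. Of the tested genes, 90.9% had a larger change in either direction. The sign of this small difference turned in 4 of 17 alternatives. Among 96 tested genes of the adhesion and actin lists, the 3 whose pattern over the 6 libraries was closest to LASP1 were GIT2, PTK2 and ARPC5L, with root mean square differences of 0.0189, 0.0205 and 0.0231 on the log2 scale. LASP1 varied little, so by this measure any gene that varied little lies close. Low genes such as GIT2 (1.86 FPKM in knockdown libraries) are further flattened on the FPKM + 1 scale.

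NEBL encodes nebulette, a nebulin-family actin-binding protein, and from other exons the short relative of LASP1 known as LASP2; the gene row does not separate them. NEBL had 94, 132 and 93 reads in knockdown libraries, against 97, 77 and 94 reads in control libraries, or 0.414 ± 0.0661 FPKM in knockdown and 0.364 ± 0.0391 FPKM in control libraries (SD, n = 3 each). The groups overlapped, and the gene was below the test's filter of 0.5 FPKM. An exact two-sided permutation test gave p = 0.5. The summed reads were 319 in knockdown libraries (exact Poisson 95% interval 285.0 to 356.0) and 268 in control libraries (237 to 302.1), intervals that cover counting error only. NEBL made up 0.853% of the summed LASP1 and NEBL level in knockdown and 0.741% in control libraries.

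ZYX, zyxin, which brings Ena/VASP proteins to stressed actin bundles and adhesions, had 80.2, 78.0 and 78.7 FPKM in knockdown libraries, against 73.5, 76.1 and 71.0 FPKM in control libraries. Every knockdown library lay above every control library. ZYX averaged 79.0 ± 1.08 FPKM in knockdown and 73.5 ± 2.53 FPKM in control libraries (SD, n = 3 each), 7.42% higher, with a log2 fold change of 0.10 (SE 0.03, 95% interval 0.04 to 0.17; limma adjusted p = 0.0476). An exact two-sided permutation test gave p = 0.1, the minimum for groups of 3. The call rested close to the threshold and passed in 9 of 17 alternatives. Without knockdown replicates 1, 2 and 3 in turn its adjusted p was 0.134, 0.0889 and 0.110, without control replicates 1 and 3 it was 0.0956 and 0.0939, and without control replicate 2 it was 0.0325. ZYX shares 82 exon bases with the opposite-strand gene EPHA1, which had at most 256 reads in a library, and the labels do not say whether counting used strand.

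LPP, the lipoma-preferred partner and close relative of zyxin, had 2.32, 2.42 and 2.385 FPKM in knockdown libraries, against 2.11, 2.10 and 2.31 FPKM in control libraries. The groups did not overlap, though knockdown replicate 1 and control replicate 3 lay next to each other. The log2 fold change was 0.09 with a 95% interval of -0.04 to 0.22 (limma adjusted p = 0.31), and the exact two-sided permutation test gave p = 0.1. On the whole reads, 946 to 1222 per library, limma-voom placed it at 0.15 (adjusted p = 0.0153), where 28.2% of all tested genes passed. Without the filter, voom gave the same 0.15 and the call was lost (adjusted p = 0.0736).

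TES, testin, a LIM protein that binds zyxin and the Ena/VASP protein Mena, had 60.9, 59.8 and 59.7 FPKM in knockdown libraries, against 64.0, 62.7 and 65.8 FPKM in control libraries. All knockdown libraries were below all control libraries. TES averaged 60.1 ± 0.689 FPKM in knockdown and 64.2 ± 1.57 FPKM in control libraries (SD, n = 3 each), with a log2 fold change of -0.09 (SE 0.02, 95% interval -0.15 to -0.03; limma adjusted p = 0.0394). The exact two-sided permutation test gave p = 0.1. The call passed in 7 of 17 alternatives. Its adjusted p was 0.0706, 0.110 and 0.114 without knockdown replicates 1, 2 and 3 in turn, 0.0761 and 0.0853 without control replicates 1 and 3, and 0.0441 without control replicate 2. ZYX and TES moved in opposite directions, and the sum of ZYX, LPP and TES was 141.5 ± 1.69 FPKM in knockdown and 139.9 ± 0.889 FPKM in control libraries (SD, n = 3 each; groups overlapping, exact permutation p = 0.3). Within that sum ZYX held 55.8% in knockdown and 52.6% in control libraries, and TES held 42.5% in knockdown and 45.9% in control libraries, both without overlap.

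**Figure D2:**
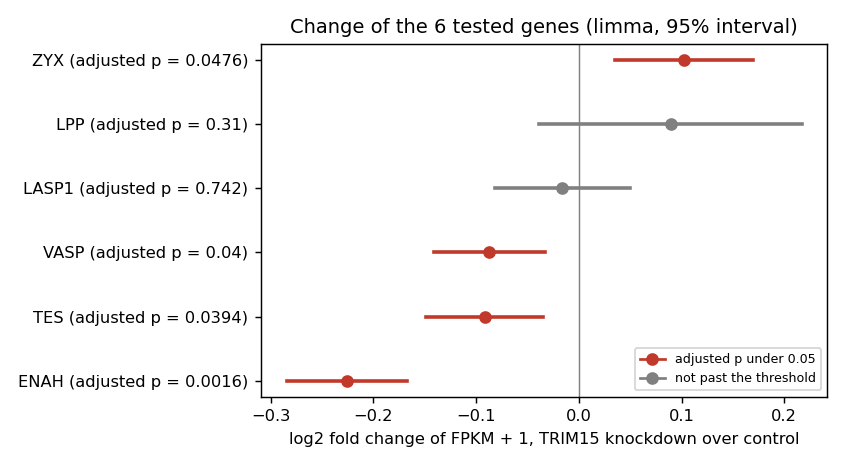
Log2 fold change of FPKM + 1 (knockdown over control) of the 6 tested genes, with limma's 95% intervals; red marks an adjusted p under 0.05 and grey one at or above it. ENAH lies at -0.23, TES and VASP at -0.09, LASP1 at -0.02, LPP at 0.09 and ZYX at 0.10.

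ENAH, or Mena, an Ena/VASP protein that speeds filament growth and shapes protrusions, showed the largest change among the 6 tested genes. It had 25.4, 25.3 and 25.4 FPKM in knockdown libraries, against 29.1, 30.2 and 30.2 FPKM in control libraries. The groups were clearly apart, with the knockdown libraries in a narrow band below all control libraries. ENAH averaged 25.4 ± 0.0969 FPKM in knockdown and 29.8 ± 0.659 FPKM in control libraries (SD, n = 3 each), 85.0% of control, from 6719 to 8256 reads per library. The log2 fold change was -0.23 (SE 0.02, 95% interval -0.28 to -0.17; limma adjusted p = 0.0016), and the exact two-sided permutation test gave p = 0.1. The call passed in 17 of 17 alternatives, with adjusted p from 1.17e-11 to 0.0142 and log2 fold changes from -0.24 to -0.21. Of all tested genes, 16.3% had a larger change in either direction.

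VASP, the founding member of the Ena/VASP family, had 54.6, 52.2 and 53.6 FPKM in knockdown libraries, against 56.9, 56.4 and 57.2 FPKM in control libraries. No knockdown library reached the lowest control library. It averaged 53.4 ± 1.195 FPKM in knockdown and 56.8 ± 0.445 FPKM in control libraries (SD, n = 3 each), with a log2 fold change of -0.09 (SE 0.02, 95% interval -0.14 to -0.03; limma adjusted p = 0.0400; exact permutation p = 0.1). The call passed in 5 of 17 alternatives. Without knockdown replicates 2 and 3 its adjusted p was 0.113 and 0.0983, without control replicates 1, 2 and 3 it was 0.0816, 0.0817 and 0.0954, and without knockdown replicate 1 it was 0.0488.

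EVL, the third Ena/VASP gene and one best known from blood cells, had 38, 60 and 37 reads in knockdown libraries, against 48, 52 and 46 reads in control libraries. The groups overlapped, at 0.225 ± 0.0532 FPKM in knockdown and 0.255 ± 0.0199 FPKM in control libraries (SD, n = 3 each; exact permutation p = 0.4), and the gene was below the filter. Its summed reads were 135 in knockdown libraries (exact Poisson 95% interval 113 to 160) and 146 in control libraries (123 to 172). The Ena/VASP sum was 80.1, 77.7 and 79.2 FPKM in knockdown libraries, against 86.2, 86.8 and 87.7 FPKM in control libraries, without overlap (79.0 ± 1.21 FPKM in knockdown and 86.9 ± 0.767 FPKM in control libraries; exact permutation p = 0.1, n = 3 each). VASP held 67.6 ± 0.475% of it in knockdown and 65.4 ± 0.546% in control libraries, and ENAH held 32.1 ± 0.41% in knockdown and 34.3 ± 0.535% in control libraries (SD, n = 3 each). EVL held 0.285% in knockdown and 0.294% in control libraries. These shares rest on the union of exons. On the length of the transcript with the longest coding sequence, ENAH stood above VASP. That length is 3308 bases for ENAH and 2305 for VASP, against exon unions of 15044 and 3601 bases. All reads of the union were kept, so that scale cannot decide which gene had more RNA. Levels on that scale were 115 for ENAH and 83.5 for VASP in knockdown libraries, and 136 and 88.8 in control libraries. On FPKM, the ratio of ZYX to ENAH was 3.11 ± 0.0382 in knockdown and 2.47 ± 0.102 in control libraries. That of LASP1 to ENAH was 1.90 ± 0.0272 in knockdown and 1.63 ± 0.0687 in control libraries. Both were without overlap (SD, n = 3 each; exact permutation p = 0.1 for each), with ENAH lower and LASP1 not past the threshold. The ratio of LASP1 to ZYX was 0.609 ± 0.0154 in knockdown and 0.663 ± 0.0435 in control libraries. That of LASP1 to VASP was 0.900 ± 0.0307 in knockdown and 0.856 ± 0.0208 in control libraries. The groups overlapped for these LASP1 ratios to ZYX and VASP (SD, n = 3 each; exact permutation p = 0.2 for each).

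Among the 6 members tested, 4 passed the threshold, 1 higher and 3 lower in knockdown libraries, beside 19.0% of all tested genes. The groups did not overlap for 5 of 6, beside 37.8%. Their median log2 fold change was -0.05, beside 0.00143 over all tested genes, and the median size of change among all genes that passed was 0.22. Only ENAH was past that size among the 6. The count fell to 1 without the filter on low values, without the variance trend and with a replicate block, and also without knockdown replicate 2, knockdown replicate 3, control replicate 1 or control replicate 3. It was 2 without knockdown replicate 1 and 3 without control replicate 2. The members were chosen with earlier results of these data known. ENAH exceeded 89.97% of protein-coding genes with a value above 0, and LASP1, VASP, TES and ZYX exceeded more. The shares of all tested genes also cover genes down to the filter of 0.5 FPKM. They are therefore not shares of genes at like levels, and no enrichment was tested.

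**Figure D3:**
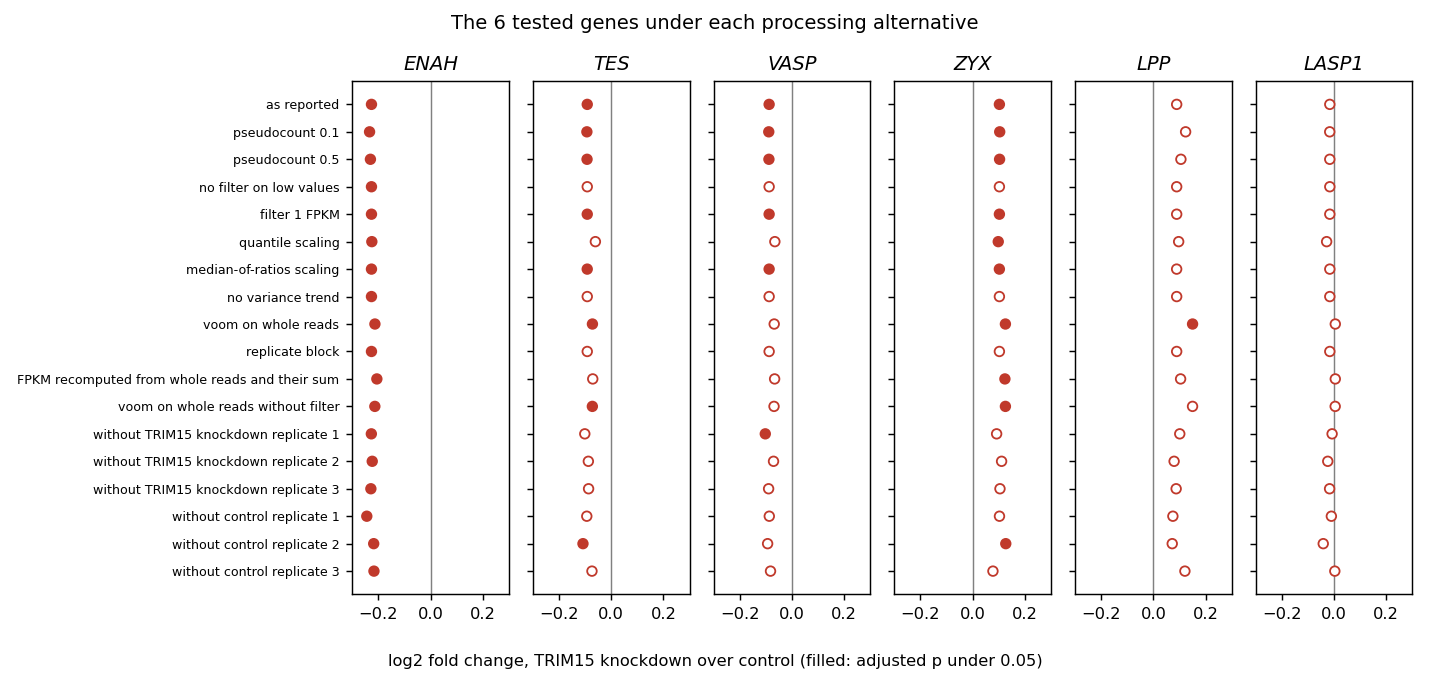
Log2 fold change (knockdown over control) of the 6 tested genes under each alternative, filled where the adjusted p was under 0.05. ENAH is filled in all settings shown, ZYX, TES and VASP in some, LPP only under voom on whole reads, and LASP1 in none.

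The remaining adhesion and actin genes were read from lists chosen with earlier results of these data known. Of 22 tested zyxin-family and other LIM-domain actin adaptors, 3 were higher and 6 lower in knockdown libraries, beside 8.93% higher and 10.1% lower of all tested genes (median log2 fold change -0.05). TRIP6, a zyxin-family adaptor, was at 49.2 ± 2.35 FPKM in knockdown and 40.0 ± 2.79 FPKM in control libraries (log2 fold change 0.29; adjusted p = 0.0121), and ABLIM3, an actin-binding LIM protein, at 6.71 ± 0.189 FPKM in knockdown and 5.16 ± 0.408 FPKM in control libraries (0.33; adjusted p = 0.00814; SD, n = 3 each). LIMA1, an actin-bundling LIM protein, was at 12.6 ± 0.440 FPKM in knockdown and 15.4 ± 0.324 FPKM in control libraries (-0.28; adjusted p = 0.00271), and FHL1, a LIM protein of muscle and other tissues, at 3.30 ± 0.286 FPKM in knockdown and 4.09 ± 0.247 FPKM in control libraries (-0.25; adjusted p = 0.0418; SD, n = 3 each). TRIP6, ABLIM3 and LIMA1 passed in all 17 alternatives and FHL1 in 9; without knockdown replicates 2 and 3 and control replicates 1 and 2 in turn, the adjusted p of FHL1 was 0.104, 0.0948, 0.102 and 0.119. The list's count fell to 4 without the filter on low values, with the replicate block, and without knockdown replicate 2, knockdown replicate 3 or control replicate 1, and to 5 without control replicate 2. The other nebulin-family genes were below the filter, with NEB at most 0.384 FPKM in a library.

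Factors that supply actin monomers or cap barbed ends, with other Ena/VASP ligands, had 0 of 13 tested genes higher and 4 lower in knockdown libraries by limma, beside 8.93% higher and 10.1% lower of all tested genes (median log2 fold change -0.02). At an unadjusted limma p under 0.05, 1 was higher, and limma-voom also called 1 higher. The shares just given do not apply to these counts: limma-voom passed 28.2% of all tested genes in either direction, and the unadjusted share was not counted. CFL2, a cofilin that severs filaments, was lower by the most in this list, at -0.75 (limma adjusted p = 0.000284). TMSB10, a thymosin that holds actin monomers, was at 1448 ± 70.2 FPKM in knockdown and 1810 ± 66.4 FPKM in control libraries (-0.32; adjusted p = 0.00278). PFN2, a profilin that feeds monomers to Ena/VASP proteins, changed by -0.16 (adjusted p = 0.00816), and CAPZA1, a capping protein subunit, by -0.14 (adjusted p = 0.00822). These 4 genes passed in all 17 alternatives. PFN1, the abundant profilin, was at 430 ± 3.77 FPKM in knockdown and 440 ± 9.64 FPKM in control libraries, not past the threshold (adjusted p = 0.321).

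Of 26 tested core focal adhesion genes, 2 were higher and 3 lower in knockdown libraries (median log2 fold change 0.01), a share near the 19.0% of all tested genes that passed. The count was 2 to 12 genes across alternatives, 2 without knockdown replicate 1, 2 or 3 or control replicate 2, and 3 without control replicate 3. The 12 were under limma-voom, where 28.2% of all tested genes passed. TNS3, a tensin, changed by 0.14 (limma adjusted p = 0.0097) and LIMS1, a LIM adaptor of the integrin-linked kinase complex, by -0.22 (adjusted p = 0.00657), both in all 17 alternatives. FERMT2, a kindlin that activates integrins, changed by -0.13 (adjusted p = 0.0364) and ACTN1, an actin cross-linker, by 0.12 (adjusted p = 0.0375); with libraries left out in turn, FERMT2 passed in 1 of 6 fits and ACTN1 in 0 of 6 (highest adjusted p 0.110 and 0.114). VCL, vinculin, was at 25.01 FPKM in knockdown and 26.09 FPKM in control libraries, not past the threshold (adjusted p = 0.161). Of 17 tested Arp2/3 and formin genes, 2 were higher and 4 lower in knockdown libraries, beside 8.93% higher and 10.1% lower of all tested genes (median -0.04). DIAPH3 and DAAM1, formins that elongate unbranched filaments, changed by -0.41 and -0.34 (adjusted p = 0.00298 and 0.00499), and ARPC5, an Arp2/3 subunit, by -0.32 (adjusted p = 0.000866). ARPC4, another subunit, was higher by 0.21 (adjusted p = 0.00769).

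SRF, a transcription factor for actin genes, and its MRTF coactivators and targets had 6 of 18 tested genes higher and 0 lower in knockdown libraries by limma, beside 8.93% higher and 10.1% lower of all tested genes (median log2 fold change 0.07). ACTN1, counted among the 6 higher, lost its call in each of the 6 fits that left out 1 library (adjusted p 0.0637 to 0.114). At an unadjusted limma p under 0.05, 2 were lower, and limma-voom called 1 lower. Limma-voom passed 28.2% of all tested genes in either direction, and the share of all tested genes at the unadjusted threshold was not counted. TPM4, a tropomyosin, was at 149.8 ± 0.379 FPKM in knockdown and 87.1 ± 0.665 FPKM in control libraries (log2 fold change 0.78, limma adjusted p = 8.24e-06; SD, n = 3 each). CYR61 and CTGF, matricellular genes of this list, were at 107.8 ± 2.17 and 123.9 ± 2.27 FPKM in knockdown libraries, against 75.3 ± 3.25 and 90.0 ± 1.93 FPKM in control libraries (SD, n = 3 each), with log2 fold changes of 0.51 and 0.46 (limma adjusted p = 0.000287 and 0.000164). SRF itself changed by 0.31 (adjusted p = 0.00479). These 4 genes passed in all 17 alternatives. ACTB, cytoplasmic actin, was at 872.6 ± 3.87 FPKM in knockdown and 829 ± 2.998 FPKM in control libraries (0.07; adjusted p = 0.0110). ACTG1, the other cytoplasmic actin, was at 554.9 ± 4.74 FPKM in knockdown and 579.3 ± 10.6 FPKM in control libraries, without overlap but not past the threshold (-0.06; adjusted p = 0.0592; SD, n = 3 each). Of the 4 tested kinases that phosphorylate LASP1 or VASP, 1 was higher and 1 lower in knockdown libraries. Of all tested genes, 8.93% were higher and 10.1% lower. ABL1 was higher at 25.3 ± 0.601 FPKM in knockdown and 21.2 ± 0.279 FPKM in control libraries (0.25; adjusted p = 0.0016). PRKACB, a catalytic subunit of protein kinase A, changed by -0.17 (adjusted p = 0.0374). That call was lost without each of the 6 libraries in turn (adjusted p 0.0503 to 0.110). PRKACA, another catalytic subunit, was at 12.9 FPKM in knockdown and 11.8 FPKM in control libraries, not past the threshold (0.11; adjusted p = 0.178). ABL2 changed by -0.06 and was not past it either (adjusted p = 0.576). These lists share VCL, FHL2, FLNA and ACTN1.

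**Figure D4:**
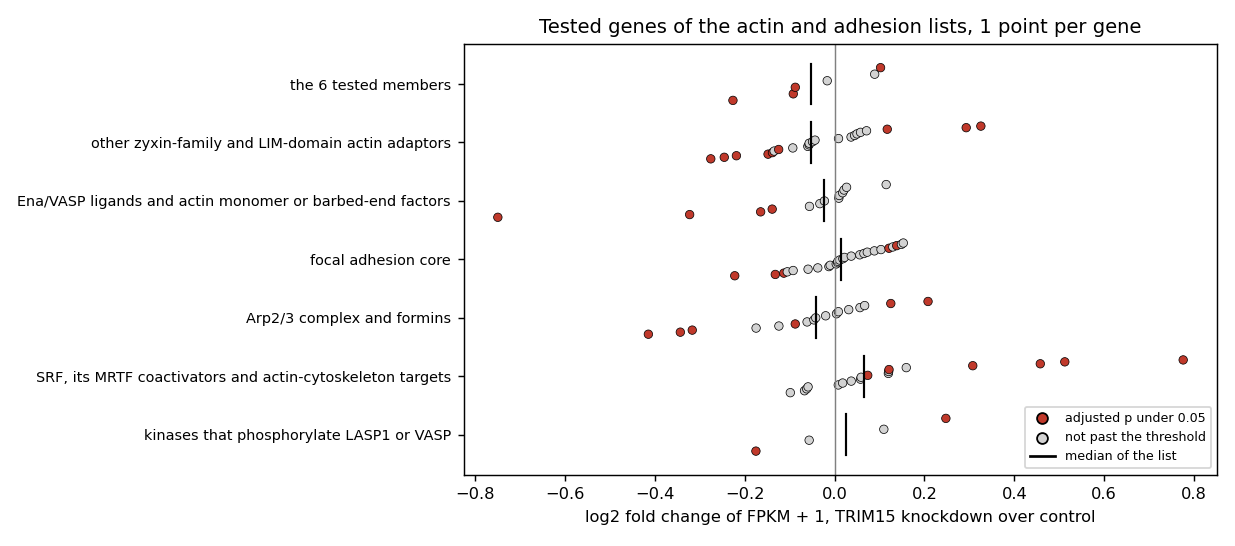
Log2 fold change (knockdown over control) of every tested gene in each list, 1 point per gene, red where the adjusted p was under 0.05 and grey otherwise, with the list's median as a bar. By this fit, red points of the SRF list lie above 0, up to TPM4 at 0.78, and those of the ligand list below 0, down to CFL2 at -0.75.

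The axis named in the study's title was read beside the members. AKT1 was at 7.53 ± 0.542 FPKM in knockdown and 6.72 ± 0.130 FPKM in control libraries (limma adjusted p = 0.101), and AKT2 at 11.5 ± 0.299 FPKM in knockdown and 10.7 ± 0.470 FPKM in control libraries (adjusted p = 0.130; SD, n = 3 each). The groups did not overlap for either gene, though neither passed the threshold. FOXO1 was at 1.88 ± 0.257 FPKM in knockdown and 2.12 ± 0.0633 FPKM in control libraries (SD, n = 3 each), with overlapping groups (adjusted p = 0.340; exact permutation p = 0.3).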

How the data were processed

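RNA sequencing of 6 Huh7 libraries had been deposited as 1 table of FPKM values computed by the authors, with a gene length column. Per the labels, mRNA was selected from total RNA and a directional (strand-marking) library kit was used. The aligner, counter and use of strand are not given in the sources used here. The submitters' processing notes name mm10, a mouse build, but 58724 of 58735 rows match the positions of the human annotation GENCODE 29 on GRCh38 and 0 identifiers have the mouse form. FPKM times gene length gave whole reads for 100% of values (tolerance 0.01). The library size implied by these steps minus the summed reads was 1.04 to 1.27% of that sum in knockdown and -0.370 to -0.359% in control libraries, so the deposited FPKM carry a scaling factor. The 14847 genes that reached 0.5 FPKM in at least 3 libraries were tested on log2(FPKM + 1), which understates changes of low genes, with limma 3.58.1 (trend, R 4.3.3), without a block, with Benjamini-Hochberg adjustment over all of them. Exact permutation tests (scipy 1.17.1) were two-sided. The code was tested on simulated data. Alternatives changed the pseudocount, filter, scaling, trend, model (limma-voom on whole reads), block and libraries. Those added after seeing the data include FPKM recomputed from whole reads and voom without a filter. The members, the lists and the rule for named genes were chosen with earlier results of these data known. The rule named all 8 members, TRIM15, up to 4 genes per list that passed with non-overlapping groups, largest change first, and the 3 genes closest to LASP1. PFN1, VCL, ACTB, ACTG1, NEB, PRKACA, ABL2, the cell type markers named in the text and the AKT and FOXO1 genes were added after their values were seen. Promoter sequences and starts are from RefSeq (GRCh38.p14).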

Additional observations from a re-analysis of the deposited data

How the results depend on the processing

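ENAH and TRIM15 kept their direction and passed in all 17 alternatives, and 18 of the 22 other list genes named by the rule did too (highest adjusted p 0.0462). Of all tested genes, 2824 passed, with 1771 to 2345 when 1 library was left out. Of the members, 4 passed: 1 without the filter, without the variance trend or with the replicate block, 2 under quantile scaling or with FPKM recomputed from whole reads, and 1 to 3 with 1 library left out. Members higher were 0 without the filter, without the trend and with the block, 2 under voom, and 0 to 1 with a library left out. Members lower were 1 without the filter, without the trend, with the block, under quantile scaling and with recomputed FPKM, and 1 to 2 with a library left out. Without the filter, without the trend and with the block, the log2 fold changes kept their size at 0.1024 for ZYX, -0.0872 for VASP and -0.0917 for TES but lost the call: adjusted p was 0.116, 0.128 and 0.0874 for ZYX, 0.0729, 0.129 and 0.0764 for VASP and 0.0804, 0.124 and 0.0826 for TES. VASP was at -0.0653 under quantile scaling, -0.0678 under voom, -0.0662 with recomputed FPKM and -0.0685 under voom without a filter. TES was at -0.0606 under quantile scaling and -0.0707 with recomputed FPKM. With a library left out, ZYX was at 0.0777 to 0.1268, VASP at -0.1019 to -0.0704 and TES at -0.1081 to -0.0737. LPP passed under voom at 0.1501 (not without the filter). LASP1 changed sign, at 0.0048 under voom, 0.0048 with recomputed FPKM and 0.0044 under voom without a filter, and was at -0.0413 to 0.0030 with a library left out. The LASP1 and NEBL sum, knockdown minus control, was -1.396 to 0.149 FPKM with a library left out. The median log2 fold change of all tested genes was 0.00143 as reported, 0.0235 under voom and 0.0174 with recomputed FPKM. The SRF list had 10 genes past the threshold under voom and 11 without a filter as well, against 6. Of all tested genes, 28.2% passed under voom, against 19.0% as reported. FHL1, FERMT2, ACTN1 and PRKACB passed in 9, 7, 8 and 7 alternatives. Recomputed FPKM and voom start from whole reads and so do not carry the scaling factor of the deposited FPKM. Beyond that difference in input, the cause of the changes between alternatives was not tested. Correlations of deviations between same-numbered libraries were 0.0125, 0.0086 and 0.0133, all under 0.1, though each was the highest for its number. They cannot decide whether the replicate numbers pair the libraries, because the deviations also hold counting error. With the block, 1913 genes passed and ENAH alone of the members. With 37 to 132 reads per library and overlapping groups, differences in NEBL and EVL could not be resolved here.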
